A study of Mus musculus with 9 samples.

Results

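The 37 genes described here encode the enzymes and membrane proteins of the lysosome, together with Tfeb, a transcription factor that acts on such genes. They were taken by gene symbol from a table of 54532 mouse genes, and each symbol was found in it. By role they were 10 cysteine proteases, 3 aspartic and serine proteases, 5 membrane proteins, 13 glycosidases and glycosaminoglycan hydrolases, 5 proteins that handle lipids and 1 transcriptional regulator. RNA sequencing compared 3 groups of 3 libraries each, with 16568306 to 23951392 counted fragments per library. The comparisons asked how immortalized cells differ from the primary cells they were made from, and how cells treated with SB431542 differ from both.

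Primary epicardium-derived cardiosphere-derived cells (pECDCs) were grown from explants of ventricular epicardium of 6-week-old C57BL/6 mice and carried no transgene or drug. Their libraries are titled P0, while the methods state that pECDCs were used at passage 3, so their passage is uncertain. Immortalized cells (iECDCs) were pECDCs infected with a lentivirus carrying human telomerase reverse transcriptase (hTERT) under a CMV promoter, selected in puromycin and used at passage 30. Between iECDCs and pECDCs, hTERT, puromycin selection and passage thus differ together, and their effects cannot be told apart. The SB431542-treated iECDCs are, by their labels, iECDCs at passage 30 given SB431542 for 3 days. SB431542 blocks the kinase of the transforming growth factor β (TGF-β) type I receptor. The study's methods instead name an epithelial clone derived from pECDCs as the SB431542-treated cells that were sequenced, so the cell of origin of these 3 libraries is uncertain, and if it was such a clone, the comparison with iECDCs joins a difference in cells to the drug. The methods name fewer biological replicates per condition than the 3 libraries of each group here, while legends of the RNA sequencing figures give n = 3. Neither the methods nor the labels say whether the 3 libraries of a group came from separate cultures or animals. The p-values thus measure the spread between these libraries, which may be technical.

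Lysosomes degrade protein, glycan and lipid in an acid compartment. Their hydrolases are made as inactive precursors, carried from the Golgi by mannose 6-phosphate receptors or by sortilin, and matured by proteolysis, while heavily glycosylated membrane proteins line the inner face of the organelle. TFEB and its relatives bind a palindromic element in the promoters of many of these genes. In fibroblast-like cells, cathepsins are also secreted, and some of them cut extracellular matrix.

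The table's coordinates equalled those of the GENCODE M21 annotation of GRCm38 for 35 of the 37 genes, although the submitters' processing notes name the build mm9. RefSeq promoters of GRCm38.p6, 300 bases each with 250 before and 50 after the annotated start, were found for 33 of the 37. The core of the TFEB element, searched as GTCACGTG on both strands (its reverse complement is CACGTGAC), was present in 9 of these 33 promoters, or 27.3%, and in 2.55% of the 27025 genes with a promoter. The shorter E-box CACGTG, which lies inside that core, was in 12 of the 33 and in 8.09% of all genes. The full palindrome, which is the core followed by AC, was in 0 of the 33 and in 0.37% of all genes. The 9 members with the core are shown with 11 bases on each side, because the letters are those of the element that Tfeb's protein is known to bind. The core is in capitals and each sequence runs 5′ to 3′ on the strand of its gene.
Lgmn (chr12:102439125-102439154, minus strand): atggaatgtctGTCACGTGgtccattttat
Naglu (chr11:101070008-101070037, plus strand): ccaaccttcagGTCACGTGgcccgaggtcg
Gla (chrX:134601183-134601212, minus strand): gtgagatctcgGTCACGTGagcaactctcg
Glb1 (chr9:114401017-114401046, plus strand): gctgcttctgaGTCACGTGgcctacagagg
Sgsh (chr11:119355521-119355550, minus strand): ggcctgccgtgCACGTGACcgtggggagcg
Ctsa (chr2:164833748-164833777, plus strand): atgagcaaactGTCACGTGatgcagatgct
Ctsd (chr7:142387907-142387936, minus strand): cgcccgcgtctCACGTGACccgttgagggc
Lamp1 (chr8:13159122-13159151, plus strand): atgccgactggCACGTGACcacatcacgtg
Mcoln1 (chr8:3500463-3500492, plus strand): ggcgccccgctCACGTGACcgcggcgcatg
Ctsd, Ctsa and Mcoln1 each held a second copy of the core, and the copy shown for each is the nearer to RefSeq's start among those that lie before it. The cores shown ended 6 bases (Ctsa) to 188 bases (Gla) before RefSeq's start, which need not be that of the table. The cores of Lgmn, Ctsd, Ctsa, Mcoln1 and Naglu lay inside the gene span the table gives and that of Sgsh across its edge, and the 50 bases after RefSeq's start of Lgmn matched no GENCODE transcript of that gene. A match describes letters in a window and is no evidence of binding. Outside the 37 genes, the core was in 1 of 15 promoters of other lysosomal hydrolases, 2 of 17 of other lysosomal membrane proteins and 2 of 12 of the subunits of the vacuolar proton pump.

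The libraries iECDC 3 and treated iECDC 2 stood apart from their groups and touch each comparison. The chi-square of counts over genes, per degree of freedom, was 4.61 between iECDC 1 and 2 but 24.9 and 30.8 against iECDC 3. Treated iECDCs 1 and 3 gave 3.79, against 70.3 and 71.6 for the pairs with treated iECDC 2, and the 3 pECDC pairs gave 2.70 to 4.23. For the lysosomal genes, treated iECDC 2 had the lowest value of its group for 34 of 37 genes and iECDC 3 for 26 of 37. These positions were not counted over all genes, so it cannot be told whether they are particular to the lysosomal genes. The 37 genes together took 0.849% and 0.851% of all FPKM in treated iECDCs 1 and 3 but 0.561% in treated iECDC 2. FPKM is the count of fragments scaled by gene length and sequencing depth. The share was 0.610 to 0.636% in pECDCs, 0.574 and 0.584% in iECDCs 2 and 1, and 0.466% in iECDC 3. Counts and tests are therefore given also without these libraries.

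The cell type was checked against markers, since macrophages are rich in several of these enzymes. Of 15 macrophage and leukocyte markers, 10 to 12, depending on the group, never exceeded 3 counts, and Adgre1, Aif1, Tyrobp, C1qa, C1qb and C1qc were at 0 in all 9 libraries. The summed level of the 15 was 10.3 to 11.4 FPKM in pECDCs, 10.6 to 14.7 in iECDCs and 14.9 to 16.8 in treated iECDCs, most of it from Csf1r and Cd14. In each comparison 3 of the 15 could be tested, and 1 was higher in iECDCs than in pECDCs. In treated cells, 1 was higher and 1 lower than in iECDCs, and 2 were higher than in pECDCs. All 10 mesenchymal and cardiac progenitor markers were detected in every group, with sums of 2180 to 2240, 2150 to 2530 and 1710 to 2470 FPKM. Of these 10, 2 were higher and 4 lower in iECDCs than in pECDCs. In treated cells, 3 were higher and 1 lower than in iECDCs, and 3 higher and 0 lower than in pECDCs. Of all genes, 7.21% were higher and 9.21% lower in iECDCs than in pECDCs. In treated cells, 16.0% and 14.0% were so against iECDCs, and 17.9% and 17.0% against pECDCs. Of 10 epicardial and epithelial markers, Krt19 (18.2 to 19.5 FPKM) and Tjp1 (12.0 to 13.2) made up most of the sum in pECDCs, and Wt1, a transcription factor of the epicardium, was near 0 there (0.0207 to 0.0921 FPKM). The sum of the 10 was 32.5 to 33.4 FPKM in pECDCs, 39.3 to 42.5 in iECDCs and 40.3 to 53.0 in treated cells. Of the 5 that could be tested in treated cells against iECDCs, 3 were higher, with a median log2 fold change of 1.47: Wt1 reached 0.107 to 0.396 FPKM, Tcf21 1.34 to 1.58 and Upk3b, a mesothelial gene at 0.0561 to 0.166 in iECDCs, 1.16 to 1.36. These markers, and some of the macrophage and mesenchymal ones, thus moved in the same comparison as the lysosomal genes. Their part in the lysosomal values was not tested. Summed over 6 target genes of TGF-β, the level was 2290 to 2360 FPKM in pECDCs and 2850, 3000 and 4320 in iECDCs 1 to 3. In treated cells 1 to 3 it was 239, 639 and 256 FPKM. Each library that stood apart thus had the highest target level of its group, and the part of this in the lysosomal values was not tested.

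Levels among the 37 genes spanned more than 2 orders of magnitude. Psap, the precursor of the saposins that help hydrolases reach sphingolipids, was the highest, with a mean over 9 libraries of 382 FPKM. Ctsz, a carboxypeptidase, and Lamp1, the major glycoprotein of the lysosomal membrane, followed at 238 and 225 FPKM. Ctsd, the aspartic protease cathepsin D, and Ctsb, the cysteine protease cathepsin B, were at 178 and 144 FPKM. These 5 were the top 5 in each of the 3 groups. At the low end were Tfeb at 2.54, Idua at 2.22 and Ctso at 1.71 FPKM. Ctss, a cathepsin of antigen-presenting cells, had 1 count in pECDC 3 and 0 in each of the other 8 libraries, so it was too low to test and 36 of the 37 genes entered each comparison. In the order of mean levels, Ctsz and Lamp1 exchanged places between pECDCs and the other groups, and their ranges overlapped in every group.

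**Figure D1:**
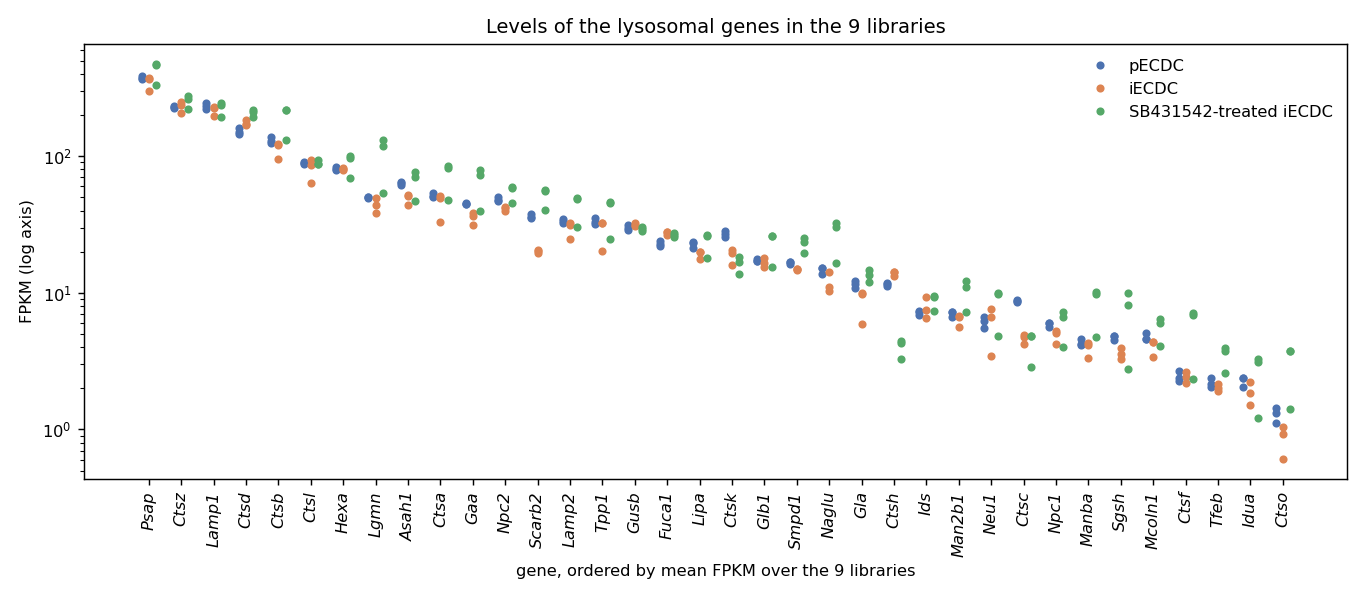
FPKM (log axis) of 36 lysosomal genes, ordered from left to right by their mean over 9 libraries; Ctss, at or near 0, is left out. Each point is a library, coloured by group. Psap lies highest at a mean of 382 FPKM and Ctso lowest at 1.71 FPKM, and for most genes the groups lie close together beside this range.

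In iECDCs compared with pECDCs, 8 of the 36 lysosomal genes were lower and 2 were higher. The lower genes were Ctsc, Scarb2, Ctsk, Sgsh, Asah1, Gaa, Lipa and Npc2, and the higher ones Ctsh and Fuca1. Over all 13752 genes tested, 9.21% were called lower and 7.21% higher, against 22.2% and 5.56% of the members. The differences were small, with a median log2 fold change of -0.19 over the members and a negative sign in 31 of 36, where 49.7% of all genes had a positive sign. In FPKM, 14 members had all iECDC libraries below all pECDC libraries and 3 had them above, against 19.2% and 20.7% of all genes. Without iECDC 3, 12 members were lower and 3 higher, with 16.2% and 15.5% of all genes, and the median was -0.09.

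Ctsc and Scarb2 carried the clearest differences between iECDCs and pECDCs. Ctsc encodes cathepsin C, the dipeptidyl peptidase that activates serine proteases of granules, and lies at chr7:88278085-88310888. It measured 8.86, 8.53 and 8.73 FPKM in the pECDCs, 4.75, 4.91 and 4.25 in the iECDCs, and 4.79, 2.88 and 4.83 in the treated cells. Every iECDC and treated library lay below every pECDC library, and iECDCs and treated cells overlapped. The log2 fold change in iECDCs was -0.92 ± 0.0753 (SE, adjusted p = 9.04e-05, edgeR quasi-likelihood test), and in treated cells it was -0.14 ± 0.201 against iECDCs (adjusted p = 0.61). Scarb2 (chr5:92441314-92506833) encodes LIMP-2, the membrane receptor that carries glucocerebrosidase to lysosomes. Its level was 35.4, 35.8 and 37.4 FPKM in pECDCs, 19.6, 20.1 and 20.4 in iECDCs, and 55.9, 40.5 and 56.2 in treated cells. The 3 groups did not overlap in any direction, with iECDCs lowest and treated cells highest. It was 1.82-fold lower in iECDCs than in pECDCs (log2 -0.87 ± 0.0578, adjusted p = 2.72e-05). Both genes passed in all 13 alternative fits of this comparison.

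Among the other cysteine proteases, Ctsk, the collagen-cleaving cathepsin best known from osteoclasts, was also lower in iECDCs. It measured 25.4, 26.8 and 28.6 FPKM in pECDCs, 20.7, 19.5 and 15.9 in iECDCs, and 16.9, 13.7 and 18.4 in treated cells. All 6 iECDC and treated libraries were below the 3 pECDC libraries, while those 6 overlapped each other. The fold change was -0.54 ± 0.103 on the log2 scale (adjusted p = 0.00849), and without pECDC 3 the adjusted p was 0.053. Ctsk lies 17424 bases from Ctss on chromosome 3, and the latter had 1 count in pECDC 3 and 0 in every other library. Ctsh, the aminopeptidase cathepsin H, went the other way, at 11.5, 11.2 and 11.7 FPKM in pECDCs and 13.4, 14.2 and 14.3 in iECDCs. All iECDC libraries were above all pECDC libraries, by a log2 fold change of 0.27 ± 0.0616 (adjusted p = 0.0195), a call that 6 of the 13 alternatives did not keep. The other cysteine proteases were not called, with log2 fold changes from -0.59 for Ctso to 0.00 for Ctsz.

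The lipid-handling genes were lower in 3 of 5 cases, with a median log2 fold change of -0.24. Asah1, the acid ceramidase, measured 61.4, 64.0 and 65.2 FPKM in pECDCs, 52.2, 51.4 and 44.2 in iECDCs, and 71.0, 46.9 and 77.1 in treated cells. The iECDC values were all below the pECDC values, and the treated values lay on both sides of the pECDC range. Its log2 fold change in iECDCs was -0.38 ± 0.0771 (adjusted p = 0.0107). Lipa, the acid lipase of cholesteryl esters and triglycerides, was at 23.6, 21.2 and 23.2 FPKM in pECDCs and 19.97, 19.8 and 17.8 in iECDCs. Those groups did not overlap, but the test was close to its threshold (-0.26 ± 0.0747, adjusted p = 0.0475), and 10 of 13 alternatives did not call it. Npc2, which hands cholesterol to Npc1, was lower by a similar amount (-0.24 ± 0.063, adjusted p = 0.0311), and Npc1 itself, at -0.28 ± 0.0879, was not called (adjusted p = 0.0569). Smpd1, the acid sphingomyelinase, and Psap had log2 fold changes of -0.18 and -0.13 and were not called.

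Of the 13 glycosidases and glycosaminoglycan hydrolases, Sgsh and Gaa were lower in iECDCs and Fuca1 was higher. Sgsh, the sulfamidase of heparan sulfate, was at 4.55, 4.81 and 4.79 FPKM in pECDCs, 3.27, 3.96 and 3.58 in iECDCs, and 9.999, 2.75 and 8.20 in treated cells. The iECDC libraries were all below the pECDC ones, and the treated libraries held both the highest and the lowest of the 9 values. The fold change in iECDCs was -0.40 ± 0.094 on the log2 scale (adjusted p = 0.0197). Gaa, the acid α-glucosidase that breaks down glycogen, measured 44.7, 44.6 and 45.6 FPKM in pECDCs, 38.1, 36.3 and 31.1 in iECDCs, and 79.6, 39.9 and 73.1 in treated cells. Its iECDC values were below both other groups without overlap, and it was lower than in pECDCs by 0.37 on the log2 scale (fold change -0.37 ± 0.081, adjusted p = 0.0159). Fuca1, the α-fucosidase, was higher by 0.25 ± 0.0627 (adjusted p = 0.0251). The other 10 ranged from -0.44 for Gla to 0.10 for Ids and were not called, nor were the 3 aspartic and serine proteases, the other 4 membrane proteins or Tfeb. Of the 13 alternative fits of this comparison, Npc2 and Fuca1 kept their calls in 7, Sgsh in 8, Gaa in 9 and Asah1 in 10.

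**Figure D2:**
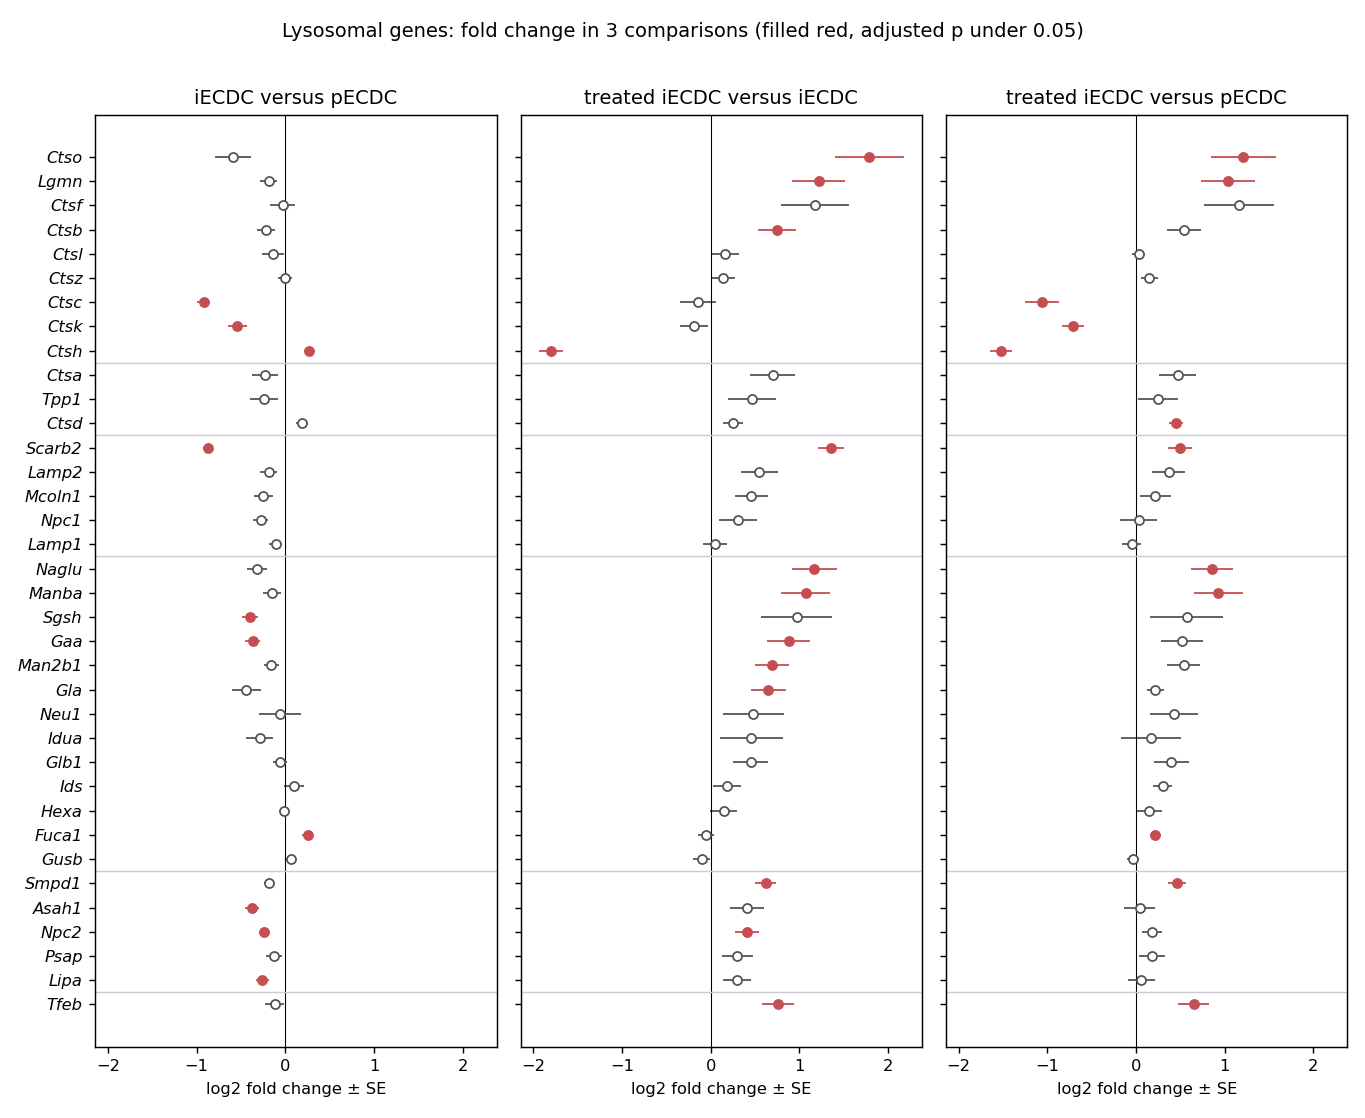
Log2 fold change with its standard error for 36 lysosomal genes in the 3 comparisons, grouped by role from cysteine proteases at the top to Tfeb at the bottom; red filled points passed an adjusted p of 0.05. The iECDC against pECDC panel holds 2 higher and 8 lower genes, and the panel of treated iECDC against iECDC holds 12 higher genes with Ctsh, at -1.80, alone among the lower ones.

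In SB431542-treated iECDCs compared with iECDCs, 12 of the 36 genes were higher and 1, Ctsh, was lower. The higher genes were Ctso, Scarb2, Lgmn, Naglu, Manba, Gaa, Tfeb, Ctsb, Man2b1, Gla, Smpd1 and Npc2, with fold changes from 1.32 to 3.46. Among all 13559 genes tested, 16.0% were called higher and 14.0% lower, against 33.3% and 2.78% of the members. The median log2 fold change of the members was 0.46 and 31 of 36 were positive, compared with 50.1% of all genes. In FPKM, 13 of the 37 genes had all treated libraries above all iECDC libraries and 2 had them below, against 23.0% and 23.5% of all genes. Because the RNA came from whole cultures, more cells of a type and more RNA per cell cannot be told apart. The iECDC libraries enter both this comparison and the previous one, so the calls of these comparisons are not independent of each other.

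The 2 libraries that stood apart changed these counts. Without treated iECDC 2, 27 members were higher and 1 lower, with 25.3% and 24.8% of all genes. Without iECDC 3, 6 were higher and 1 lower, with 13.5% and 11.9% of all genes, and with both left out 29 were higher and 1 lower, with 32.6% and 31.9%. Treated iECDCs 1 and 3 were above all 3 iECDC libraries for 30 of 37 genes, and treated iECDC 2 for 13 of 37. The shares of all genes with these positions were not computed, so neither count can be set against them. Leaving out any 1 library other than treated iECDC 2 gave between 2 and 6 higher members, with 7.07 to 13.5% of all genes. Scarb2, Smpd1 and Ctsh kept their calls in all 14 alternative fits, and the other 10 lost theirs in at least 1. What set the 2 libraries apart was not tested.

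**Figure D3:**
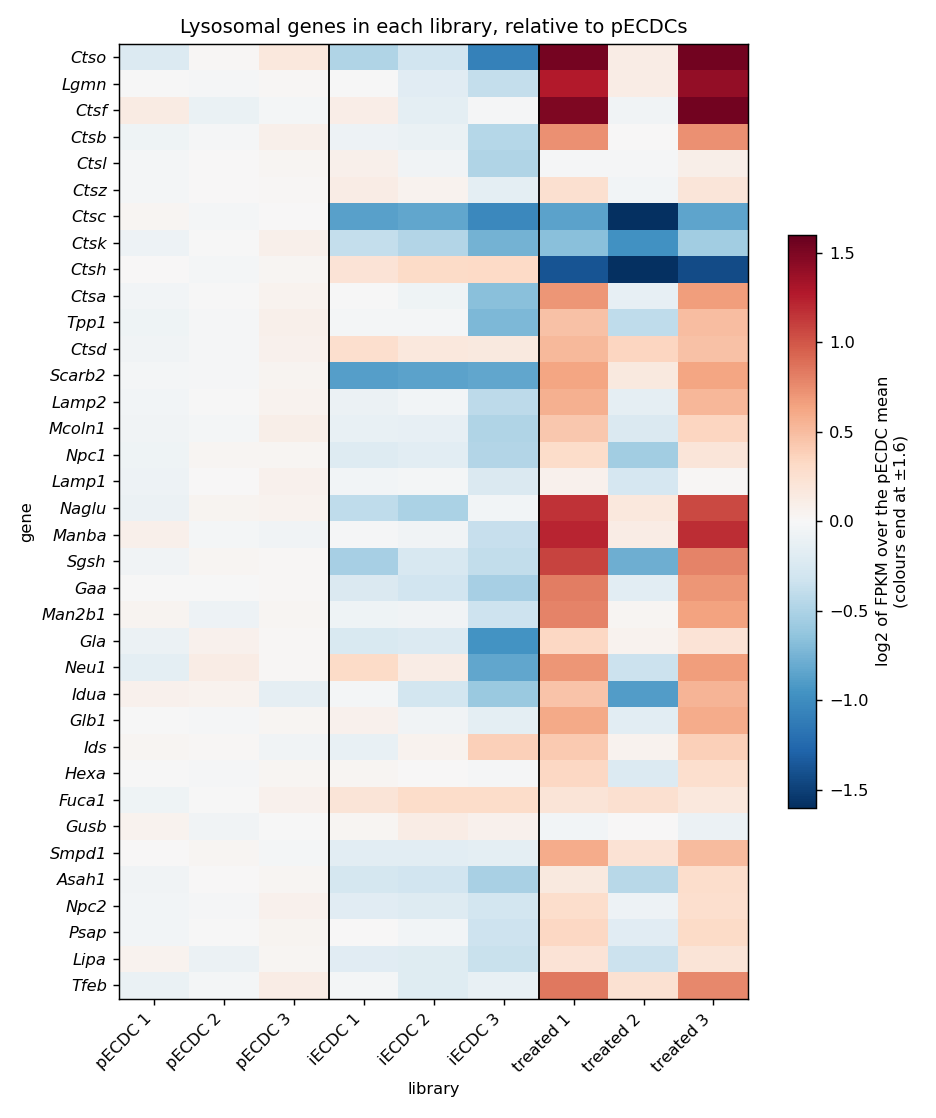
Log2 of FPKM in each library over the pECDC mean, for 36 lysosomal genes (in rows, in the order of the fold-change plot) and 9 libraries (in columns); colours end at ±1.6. Treated iECDCs 1 and 3 are red over most rows, treated iECDC 2 lies near the pECDCs, and iECDC 3 is the bluest of its group for many genes.

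Cysteine proteases moved in both directions under SB431542. Ctso, cathepsin O, a little-studied papain-family member, was low throughout, with 48 to 350 counts per library. It measured 1.11, 1.31 and 1.45 FPKM in pECDCs, 0.928, 1.05 and 0.610 in iECDCs, and 3.73, 1.40 and 3.78 in treated cells. All treated values were above all iECDC values, and treated iECDC 2 was inside the pECDC range. It rose by 1.79 ± 0.39 on the log2 scale (adjusted p = 0.0127), and 1.58 without iECDC 3. Lgmn (chr12:102394084-102439813) encodes legumain, the asparaginyl endopeptidase that processes cathepsins. Its level was 49.9, 49.1 and 50.6 FPKM in pECDCs, 49.6, 44.2 and 38.3 in iECDCs, and 120, 54.1 and 132 in treated cells. Treated cells were higher than both other groups without overlap, narrowly so in treated iECDC 2. The fold change was 2.33 (log2 1.22 ± 0.301, adjusted p = 0.0194), with an adjusted p of 0.069 without iECDC 3 and 1.42e-05 without treated iECDC 2.

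Ctsb, an abundant endopeptidase with a further dipeptidase activity, was at 125, 129 and 138 FPKM in pECDCs, 124, 121 and 95.2 in iECDCs, and 218, 132 and 218 in treated cells. Its treated values exceeded those of iECDCs without overlap, and treated iECDC 2 lay among the pECDCs. The log2 fold change was 0.75 ± 0.217 (adjusted p = 0.0341), and the adjusted p was 0.0971 without iECDC 3. Ctsh (chr9:90054152-90076089) fell to 4.42, 3.26 and 4.27 FPKM, below all 6 libraries of the other groups. The decrease was 3.48-fold (log2 -1.80 ± 0.138, adjusted p = 0.000395) and was -1.67 without treated iECDC 2, the lowest treated library. Ctsf, cathepsin F, had 6.84, 2.34 and 7.09 FPKM in treated cells and 2.19 to 2.63 in iECDCs, and its log2 fold change of 1.18 ± 0.386 just missed the threshold (adjusted p = 0.0508). Ctsk, Ctsc, Ctsl and Ctsz were not called, with values from -0.19 to 0.16.

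Glycosidases and glycosaminoglycan hydrolases held 5 of the 12 higher genes. This was 38.5% of the 13 in this role, near the 33.3% of all members. Naglu, the α-N-acetylglucosaminidase of heparan sulfate (chr11:101070012-101077672), was at 13.7, 15.1 and 15.3 FPKM in pECDCs, 11.1, 10.3 and 14.3 in iECDCs, and 32.7, 16.56 and 30.5 in treated cells. The treated group lay above both others, and within it the second library was the closest to them. The fold change was 2.26 (log2 1.17 ± 0.253, adjusted p = 0.0121), and it passed without iECDC 3 (1.31, adjusted p = 0.0254) and without treated iECDC 2 (1.42, adjusted p = 3.73e-05). Manba, the β-mannosidase that acts late in glycoprotein breakdown, measured 4.58, 4.24 and 4.18 FPKM in pECDCs, 4.28, 4.18 and 3.35 in iECDCs, and 10.1, 4.71 and 9.85 in treated cells. Treated iECDC 2 was only just above the other groups, and the other treated libraries were far above them. Its log2 fold change was 1.07 ± 0.274 (adjusted p = 0.0221), with an adjusted p of 0.0757 without iECDC 3. Gaa, whose values are given above, rose by 0.88 ± 0.244 on the log2 scale (adjusted p = 0.0293), Man2b1, the α-mannosidase, by 0.69 ± 0.195 (adjusted p = 0.0319), and Gla, the α-galactosidase that clears globotriaosylceramide, by 0.65 ± 0.198 (adjusted p = 0.0398).

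Sgsh, the partner of Naglu in heparan sulfate degradation, had a log2 fold change of 0.97 ± 0.399 that was not called (adjusted p = 0.0997); treated iECDC 2 was below all iECDC libraries and treated iECDCs 1 and 3 were far above them. Gusb, the β-glucuronidase, ranged from 28.1 to 32.6 FPKM over all 9 libraries, and Fuca1 from 25.6 to 28.0 FPKM over the 6 iECDC and treated libraries, above the 21.8 to 23.9 FPKM of pECDCs. Their log2 fold changes against iECDCs, not called, were -0.10 ± 0.0946 and -0.05 ± 0.0909. Hexa, the α subunit of β-hexosaminidase, Ids and Idua, which open dermatan and heparan sulfate, Glb1, the β-galactosidase, and Neu1, the sialidase, were between 0.15 and 0.48 and were not called. Summed over the 9 libraries, Dgkq, which overlaps Idua on the opposite strand, had 151% of Idua's counts. Rmc1, opposite to Npc1, had 41.3% of Npc1's, and Tmppe, on the same strand as Glb1, had 20.2% of Glb1's. The counting is not stated to use strand, so fragments of the pairs on opposite strands may not have been separated. Strand could not separate those of Tmppe and Glb1.

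Membrane proteins showed 1 call, Scarb2, among 5. Its 2.56-fold rise in treated cells (log2 1.36 ± 0.148, adjusted p = 0.00112) started from the low iECDC level, and treated cells were also above pECDCs, by 0.50 ± 0.136 (adjusted p = 0.0278). Lamp1 was at 221, 234 and 244 FPKM in pECDCs, 227, 228 and 198 in iECDCs, and 243, 193 and 236 in treated cells. The groups overlapped throughout, and the log2 fold change was 0.05 ± 0.137. Lamp2, the receptor of chaperone-mediated autophagy, Mcoln1, a calcium channel of the lysosome, and Npc1, the cholesterol exporter, were at 0.55, 0.46 and 0.31 and were not called. Each of the last 3 passed without treated iECDC 2 (adjusted p = 0.000977, 0.00275 and 0.00386).

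**Figure D4:**
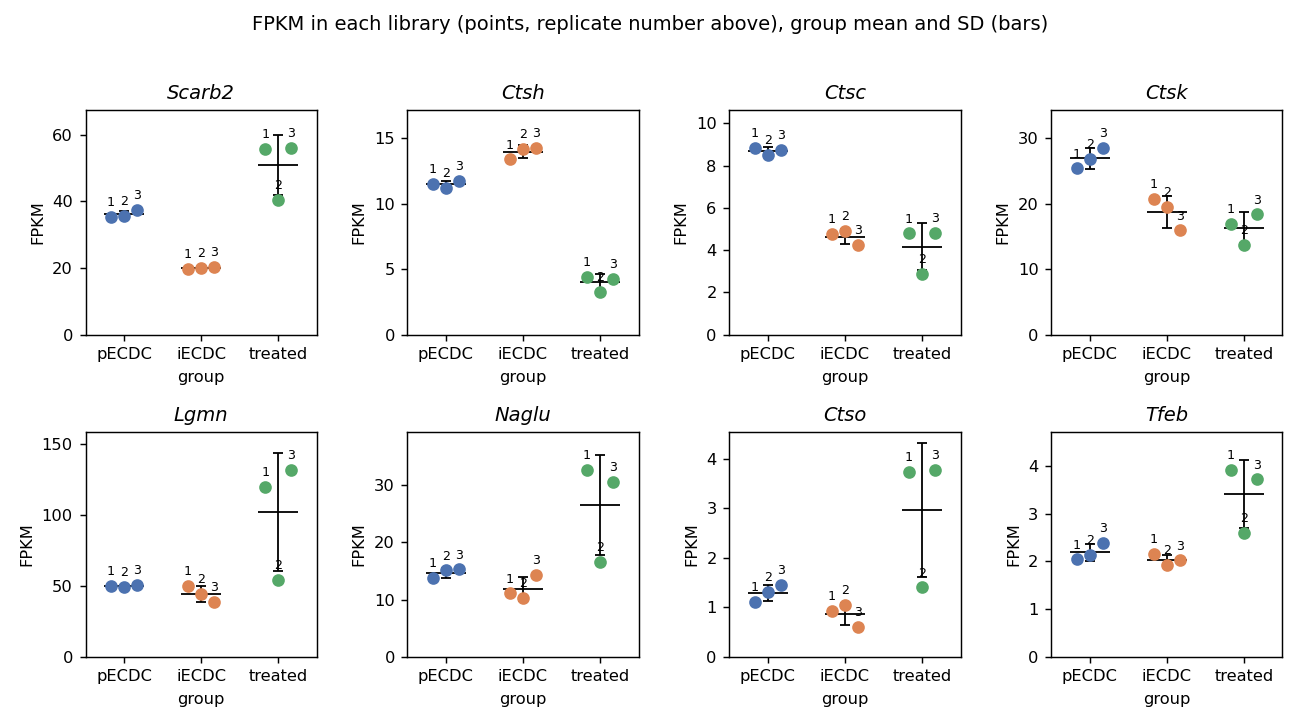
FPKM of 8 lysosomal genes in each library (points, with replicate numbers), with the group mean (long bar) and SD (whiskers). Scarb2 is lowest in iECDCs, Ctsh is lowest in treated cells, Ctsc and Ctsk are highest in pECDCs, and Lgmn, Naglu, Ctso and Tfeb are highest in treated iECDCs 1 and 3.

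Among lipid-handling genes, Smpd1 rose to 25.0, 19.5 and 23.5 FPKM in treated cells, from 14.8, 14.7 and 14.9 in iECDCs. These groups were well separated, and the log2 fold change was 0.62 ± 0.117 (adjusted p = 0.00754). Npc2 rose by 0.41 ± 0.131 (adjusted p = 0.0484), close to the threshold. Psap, at 364, 375 and 389 FPKM in pECDCs, 376, 366 and 299.99 in iECDCs and 475, 330.3 and 464 in treated cells, overlapped between iECDCs and treated cells. Its log2 fold change was 0.30 ± 0.177, and those of Asah1 and Lipa were 0.41 and 0.30, none of them called. Without treated iECDC 2 all 3 passed, with adjusted p of 0.0125, 0.00141 and 0.00299.

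Among the aspartic and serine proteases, Ctsd was at 146, 150.0 and 160 FPKM in pECDCs, 184, 171 and 170 in iECDCs, and 217, 193 and 210 in treated cells. Each step was without overlap, from pECDCs to iECDCs to treated cells. Neither step was called (0.19 ± 0.0664 and 0.25 ± 0.113 on the log2 scale), while treated cells against pECDCs were (0.45 ± 0.0821, adjusted p = 0.00647). Ctsa, the carboxypeptidase that protects Glb1 and Neu1, and Tpp1, the tripeptidyl peptidase, were at 0.70 and 0.47 against iECDCs and were not called. Ctsz was at 225, 230.3 and 234 FPKM in pECDCs, 250, 239 and 207 in iECDCs, and 274, 222 and 262 in treated cells. The 3 groups overlapped in Ctsz, and no comparison called it. Nelfcd, on the opposite strand, had 18.3% of the counts of Ctsz summed over the libraries. The 2 genes overlap only at their edges, since Nelfcd ends at base 174427502 and the span of Ctsz begins at base 174427493.

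Tfeb (chr17:47737030-47792419) was low, at 2.04, 2.14 and 2.39 FPKM in pECDCs, 2.15, 1.92 and 2.02 in iECDCs, and 3.92, 2.59 and 3.72 in treated cells. Treated cells were above both other groups without overlap. The rise over iECDCs was 1.69-fold (log2 0.76 ± 0.181, adjusted p = 0.0171), and pECDCs and iECDCs did not differ beyond their spread (-0.12 ± 0.106, adjusted p = 0.469). The 9 genes with the GTCACGTG core had a median log2 fold change of 0.65 in treated cells, with 3 called higher (Lgmn, Naglu and Gla). The 23 tested genes with a promoter without it had a median of 0.46, with 8 called higher, and Lamp1, at 0.05, was the smallest change among the 9. Of all genes, 16.0% were called higher in this comparison.

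Compared with pECDCs, treated cells had 9 of 36 genes higher and 3 lower, where 17.9% of 14015 genes were called higher and 17.0% lower. The higher ones were Ctso, Lgmn, Manba, Naglu, Tfeb, Scarb2, Smpd1, Ctsd and Fuca1. The lower ones were Ctsh (log2 -1.52 ± 0.126), Ctsc (-1.06 ± 0.192) and Ctsk (-0.71 ± 0.123), all of them cysteine proteases, and each of the 3 passed in all 13 alternatives. In all, 31 of 36 were positive, as were 50.7% of all genes, and 9 lay above and 3 below pECDCs without overlap in FPKM, against 25.1% and 26.4% of all genes. Without treated iECDC 2, 30 members were higher and 3 lower, with 31.7% and 32.3% of all genes. Without any 1 other library, 1 or 2 members were higher and 3 lower. Of all genes, 8.64 to 12.1% were higher and 8.45 to 11.6% lower in those fits. This comparison shares its treated libraries with the previous one and its pECDC libraries with the first.

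Related genes outside the 37 were read in lists. Of 22 other lysosomal hydrolases and activators tested in treated cells against iECDCs, 9 were higher and 1 lower, with a median log2 fold change of 0.33. These are 40.9% and 4.55% of the 22, against 16.0% and 14.0% of all genes. Among the higher ones were Arsa (1.09 ± 0.264), the sulfatase of sulfatide, and Gm2a (0.91 ± 0.229), the activator of GM2 breakdown. Gm2a was also higher in iECDCs than in pECDCs (0.57 ± 0.104). In that comparison 2 of the 22 were lower and 2 higher, with a median of -0.13, where 9.21% of all genes were lower and 7.21% higher.

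Lists for the other parts of the organelle were read in the same way in treated cells against iECDCs. In that comparison 16.0% of all genes were called higher and 14.0% lower. Of 18 other lysosomal membrane proteins 1 was higher, Abca2, a lipid transporter (1.79 ± 0.307), and the median was 0.11. Of 17 subunits of the vacuolar proton pump that acidifies lysosomes, 2 were higher and 1 lower, and the median was -0.11. Among 20 genes that deliver hydrolases, 2 were higher and 1 lower, with Sort1, the receptor sortilin, at 1.52 ± 0.289, and a median of 0.07. Igf2r, the large mannose 6-phosphate receptor, was lower in iECDCs than in pECDCs (-0.44 ± 0.0735) and was not called in treated cells (0.46 ± 0.204). In iECDCs against pECDCs these 3 lists had medians of -0.10, -0.03 and -0.08, with 0, 0 and 1 higher and 1, 1 and 3 lower. Of all genes, 7.21% were higher and 9.21% lower there. In treated cells against pECDCs, 2 of the membrane proteins, 2 of the pump subunits and 3 of the delivery genes were higher and 3, 6 and 3 were lower, with medians of 0.08, -0.12 and -0.03. Of all genes, 17.9% were higher and 17.0% lower there, and of the pump subunits 11.8% and 35.3%.

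Tfeb's relatives did not move together. Mitf was at 0.869, 0.827 and 0.850 FPKM in pECDCs, 0.935, 1.0 and 0.462 in iECDCs, and 2.06, 2.12 and 2.19 in treated cells, where it rose by 1.41 ± 0.266 (adjusted p = 0.00772). Unlike most of the 37 genes, its level in treated iECDC 2 was inside the narrow range of the other treated libraries. Tfe3 (0.14 ± 0.117) and Tfec (-0.72 ± 0.294) were not called. Of the 17 MiT/TFE factors and their control genes, 2 were higher and 1 lower, the others being Flcn, a brake on TFEB (0.80 ± 0.216), and Rheb, an activator of mTORC1 (-0.52 ± 0.0981). Of 20 autophagy genes, 7 were higher and 1 lower with a median of 0.20, and the largest rise was that of Map1lc3b, which encodes the autophagosome marker LC3B (0.73 ± 0.16). Thus 11.8% of the 17 and 35.0% of the 20 were higher, against 16.0% of all genes. The shares called lower were 5.88% and 5.0%, against 14.0%. Of 4 tested cathepsin inhibitors, edgeR called 0 in treated cells against iECDCs, with 0 of the 4 at an unadjusted p under 0.05, and 1, Cst3 (0.59 ± 0.18, adjusted p = 0.0408), was higher against pECDCs.

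**Figure D5:**
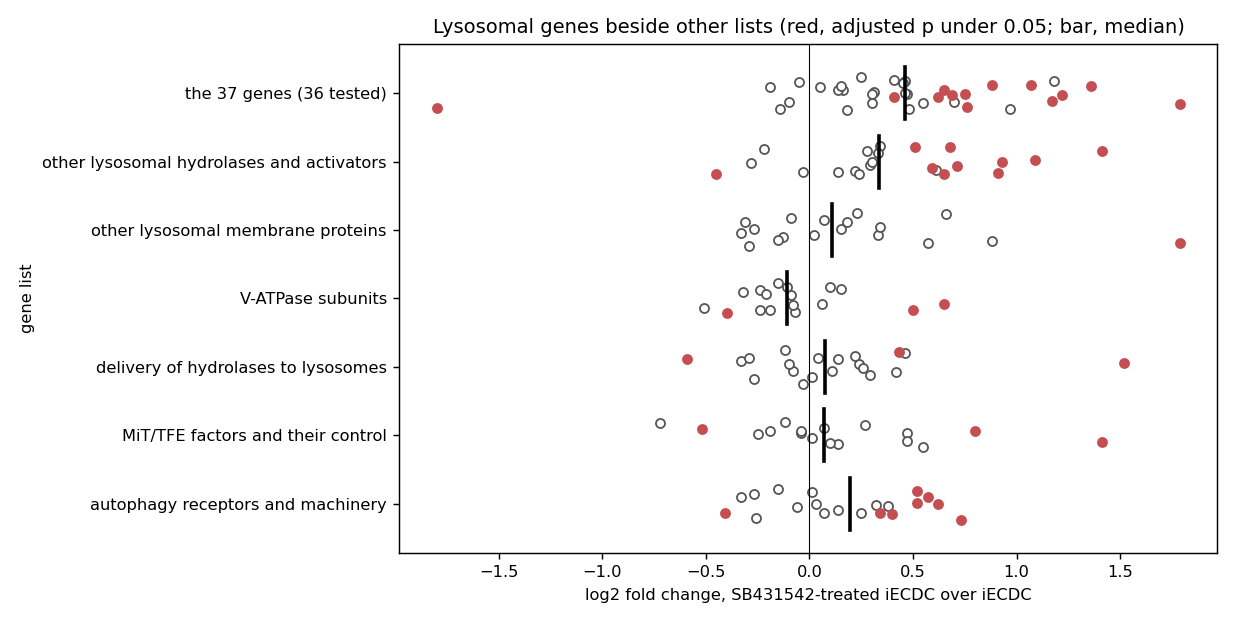
Log2 fold change of treated iECDC over iECDC for the tested genes of 7 lists, 1 point per gene, red where the adjusted p was under 0.05, with the list's median as a bar. The 37 genes (median 0.46) and the other hydrolases (0.33) lie furthest to the right, and the subunits of the proton pump (-0.11) lie to the left of 0.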

How the data were processed

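RNA libraries of 9 samples were sequenced by the authors, who deposited a table with a read count and an FPKM value per gene and library. The counts are whole numbers without normalization, and the FPKM values deposited beside them equal, to a relative tolerance of 0.001, the count divided by gene length and a factor per library, in all but 1 of the values with over 50 counts. Per the labels, the submitters' processing notes name TopHat2 2.0.9, Bowtie2 2.0.6 and mm9, but the coordinates are those of GRCm38, and the counting program is not given in the sources used here. Columns of the authors' own fold changes and p-values were not used.

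Genes passing edgeR's filterByExpr (minimum count 10, minimum total 15) were tested with edgeR 4.0.16 (TMM, quasi-likelihood F test) in R 4.3.3, each pair of groups in a fit of its own, with Benjamini-Hochberg adjustment over all genes tested and a threshold of 0.05. The authors' methods name DESeq for differential expression; DESeq2 1.42.0, limma 3.58.1 on log2(FPKM + 1) and log2(FPKM + 0.1), RLE size factors, no filter, all 9 libraries together, a block on replicate number, an added minimum log2 fold change of 0.5, and leaving out each library were alternatives. Leaving out iECDC 3 and treated iECDC 2 together was added after the data were seen. The fit was tested on simulated data in which 200 genes had a log2 fold change of size 1 and no library stood apart. In the order of the comparisons, edgeR recovered 153, 113 and 135 of the 200, with 9, 11 and 12 false calls. The simulation does not show how the fit behaves with libraries such as iECDC 3 and treated iECDC 2. Fold changes are on counts, and FPKM is used to compare levels.

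The 37 genes, the other lists and the rules were chosen with earlier results of these data known. All 37 were accounted for by role, and library values are given for the 8 largest called differences in each of the first 2 comparisons, the 5 highest genes and Tfeb; values of Ctsf, Smpd1 and Mitf were added after they were seen. From other lists, up to 4 called genes of the largest fold change were named, with Igf2r, Tfe3, Tfec and markers added. Some genes of these lists are not reported here by name. Of the 37 genes, 15 are overlapped by another annotated gene and 7 by one with over 5% of their counts.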

Additional observations from a re-analysis of the deposited data

How the results depend on the processing

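The counts of called lysosomal genes depended on the settings more than the fold changes did. In iECDCs against pECDCs, the 8 lower genes became 15 with no filter on low counts, 3 with all 9 libraries in the fit, 3 with a log2 fold change of at least 0.5, and 2 to 12 when 1 library was left out, and the 2 higher ones became 0 with all 9 libraries, 0 with the replicate block, 0 with the fold threshold and 0 to 3 without 1 library. The share of all genes called lower was 7.19% with no filter, 3.26% with all 9 libraries and 4.82 to 16.2% without 1 library. The share called higher was 1.46% with all 9 libraries, 5.25% with the replicate block and 2.57 to 15.5% without 1 library. In treated cells against iECDCs, the 12 higher genes became 2 to 27 without 1 library and 29 without both iECDC 3 and treated iECDC 2, a setting chosen after seeing the data. Of all genes, 7.07 to 25.3% were higher without 1 library and 32.6% without both. In treated cells against pECDCs, the 9 higher genes became 5 under both limma settings, 5 with the fold threshold and 1 to 30 without 1 library. Of all genes, 15.9% and 16.2% were higher under the limma settings and 8.64 to 31.7% without 1 library. Shares of all genes with the fold threshold are not given, so its counts of 3, 0 and 5 cannot be set against them. Fold changes near 0 changed sign: Ctsz in iECDCs, at 0.00, was 0.01 with DESeq2, with RLE size factors and with both limma settings, 0.00 with all 9 libraries and -0.06 to 0.08 without 1 library. Ctsc in treated cells against iECDCs was 0.00 without those 2 libraries and -0.26 to 0.06 without 1, and Lamp1 was -0.02 to 0.15 without 1. Against pECDCs, leaving out 1 library gave -0.10 to 0.23 for Asah1, -0.11 to 0.05 for Lamp1 and -0.04 to 0.22 for Lipa. The cause was not tested. The median of all genes moved by less than 0.05 under each setting.

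Same-numbered libraries, each taken as its difference from the mean of its group, had correlations of -0.192 to 0.034. Libraries that stood apart from their small groups weigh heavily on such differences. These correlations therefore cannot decide whether replicate numbers pair the samples. With the replicate block, the counts were 0 higher and 6 lower in iECDCs against pECDCs, 11 and 1 in treated cells against iECDCs, and 8 and 3 against pECDCs. In the same order, the shares of all genes were 5.25% and 7.77%, 12.1% and 10.3%, and 13.9% and 13.8%.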

Other observations

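Outside the lysosome, 7 genes of secreted and surface proteins that meet cathepsins were tested. In iECDCs against pECDCs, 2 were higher and 1 lower, where 7.21% and 9.21% of all genes were so. In treated cells against iECDCs, 1 was higher and 2 lower, where 16.0% and 14.0% of all genes were so, and the median log2 fold change was 0.09. Timp1, an inhibitor of matrix metalloproteinases, was at 1210, 1210 and 1250 FPKM in pECDCs, 1450, 1430 and 1480 in iECDCs, and 375, 897 and 394 in treated cells. It was lower in treated cells than in iECDCs by 1.38 on the log2 scale (-1.38 ± 0.316, adjusted p = 0.0152), with treated iECDC 2 again the closest to the iECDCs, and in iECDCs it was higher than in pECDCs (0.23 ± 0.0602, adjusted p = 0.0289). Anxa2, a surface annexin, fell in treated cells (-0.63 ± 0.174, adjusted p = 0.0283) and Mmp2, a gelatinase, rose (0.77 ± 0.198, adjusted p = 0.0225). Lrp1, an endocytic receptor that takes up secreted hydrolases, was lower in iECDCs than in pECDCs (-0.36 ± 0.0802, adjusted p = 0.0172). Of 4 tested cathepsin inhibitors, 2 were higher and 0 lower in iECDCs than in pECDCs: Cst3 (0.25 ± 0.0628, adjusted p = 0.0258) and Serpinb6a (0.29 ± 0.0594, adjusted p = 0.0106).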
